A study of Mus musculus with 8 samples.

Results

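The 85 ribosomal protein genes described here were taken from the 31053 genes listed for SN4741 cells. They were chosen by symbol alone: every symbol that began with Rpl, Rps or Rplp followed by a number was kept. The Rps6k kinases and symbols marked as pseudogenes were left out. The rule used no measured value, but it was set with earlier results of these data known. Of the 85, 46 encode proteins of the large ribosomal subunit, 30 encode proteins of the small subunit, and 9 are paralogs or like-named genes. Rpsa, Fau and Rack1 encode ribosomal components under other symbols, so they fell outside the rule and are given separately.

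SN4741 is a clonal mouse line made from embryonic substantia nigra that carries a temperature-sensitive SV40 T antigen under the tyrosine hydroxylase promoter, and the study found its chromosome complement to be polyploid, abnormal and unstable. The line has 1 wild-type genotype label, and its cells were grown in DMEM with 1% penicillin-streptomycin throughout. At 37 °C the medium held 10% fetal bovine serum. At 39 °C, where the activity of this T antigen is reduced, the medium held 0.5% serum for 48 hours. Temperature and serum changed together and cannot be told apart. Single-cell RNA-seq with the 10x Chromium 3' V3 kit gave 4 libraries at each temperature. The labels do not say whether these came from separate cultures, so p-values measure the spread between libraries, which may be technical.

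After filtering, 18351 of 19125 cells remained, 8550 at 37 °C and 9801 at 39 °C, with 210534583 unique molecular identifiers (UMIs, each marking 1 captured mRNA molecule). A library held 985 to 3494 cells, with a median of 6676 to 16665 UMIs per cell, and no 2 libraries shared more than 5 cell barcodes. Replicate 1 at 39 °C had the fewest cells and the highest median depth, and several results below are given with and without it. Of 10 neural precursor markers, 4 exceeded 1 CPM (counts per 1000000 UMIs) at either temperature (Nes, Sox2, Vim and Hes1), whereas Sox1, Pax6, Fabp7, Hes5 and Prom1 had 6 UMIs or fewer in all libraries together. Of 10 mesenchymal markers 6 exceeded this level, and of 8 neuronal markers 3 (Tubb3, Map2 and Stmn2).

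Ribosomal proteins assemble with ribosomal RNA into the small subunit, which decodes mRNA, and the large subunit, which forms peptide bonds. They are made in near-equal numbers, and most are encoded by 1 expressed gene among many processed pseudogenes. Their mRNAs typically begin with a cytosine followed by a run of pyrimidines, the 5' terminal oligopyrimidine (TOP) motif, through which growth signals control their translation. Growth signals also control ribosome production, and several free ribosomal proteins bind Mdm2, the ubiquitin ligase that restrains p53.

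The bases around the start sites of members that differed most between temperatures are shown first, since the TOP motif sits there. RefSeq start sites (GRCm38.p6) matched 65 of the 85 members by symbol, with 77 start sites. Each window covers 15 bases before the start and 15 from it, read 5' to 3' on the gene's own strand, with its longest run of C and T in capitals. The first 6 are from genes whose mRNA fell at 39 °C (Rplp2, Rpl14, Rps6, Rps2, Rpl41 and the paralog Rpl7l1). The others are from genes whose mRNA rose (Rps27, Rpl9, Rpl34 with 2 start sites and Rps19 with 3).
Rplp2, chr7:141447636-141447665, plus strand: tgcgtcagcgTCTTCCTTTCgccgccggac
Rpl14, chr9:120571502-120571531, plus strand: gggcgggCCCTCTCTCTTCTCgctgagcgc
Rps6, chr4:86857353-86857382, minus strand: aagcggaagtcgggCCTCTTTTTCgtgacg
Rps2, chr17:24720048-24720077, plus strand: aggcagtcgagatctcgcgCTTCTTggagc
Rpl41, chr10:128549154-128549183, minus strand: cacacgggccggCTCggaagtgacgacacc
Rpl7l1, chr17:46782642-46782671, minus strand: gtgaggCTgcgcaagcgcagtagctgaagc
Rps27, chr3:90213634-90213663, minus strand: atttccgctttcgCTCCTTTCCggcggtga
Rpl9, chr5:65391417-65391446, minus strand: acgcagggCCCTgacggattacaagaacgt
Rpl34, chr3:130730384-130730413, minus strand: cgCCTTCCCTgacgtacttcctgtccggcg
Rpl34, chr3:130730323-130730352, minus strand: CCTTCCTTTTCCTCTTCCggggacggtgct
Rps19, chr7:24884577-24884606, plus strand: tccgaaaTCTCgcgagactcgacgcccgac
Rps19, chr7:24884661-24884690, plus strand: ccgcacggtgagtgagggCTCTgggtcgcg
Rps19, chr7:24884898-24884927, plus strand: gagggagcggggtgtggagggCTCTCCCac

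Runs of 8 or more pyrimidines on the gene's strand, found by searching for C or T in any order, lay in the window at 28 of 77 member start sites (36.4%), against 3943 of 32851 start sites of all genes (12%). Among members matched to a start site, such a run was present in 9 of 18 that fell, 4 of 10 that rose and 14 of 35 that did not pass the test in all cells. The fallers Rplp2, Rpl14 and Rps6 had runs of 10, 14 and 10 pyrimidines, the riser Rps27 had a run of 9 and the riser Rpl34 runs of 8 and 18. Genes that fell and genes that rose thus both included windows with and without a long run. A missing run says only that these letters are not at the start site RefSeq gives.

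The share of captured mRNA that came from ribosomal protein genes did not pass the test of a difference between temperatures. Members contributed 36762036 UMIs, 17.5% of all UMIs kept. Their share was 18.2%, 17.2%, 16.8% and 16.9% in replicates 1 to 4 at 37 °C, and 16.7%, 18.3%, 17.9% and 17.6% at 39 °C. The groups overlapped, with replicate 1 at 39 °C the lowest of all 8 libraries and replicate 1 at 37 °C the second highest. The means were 17.2% ± 0.640 and 17.6% ± 0.677 (SD, n = 4), a difference of 0.365 percentage points (exact permutation test over the 70 ways to assign the libraries, two-sided, p = 0.457, and 0.543 after adjustment over 5 measures). Without replicate 1 at 39 °C the difference was 0.676 percentage points (exact p = 0.143). With 4 libraries against 4, the smallest p this test can give is 0.0286.

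The shares of the subunits did not pass the test either. Large-subunit genes held 10.6% ± 0.340 of UMIs at 37 °C and 10.8% ± 0.376 at 39 °C (SD, n = 4; exact permutation p = 0.371). Small-subunit genes held 6.39% ± 0.273 and 6.51% ± 0.284 (exact permutation p = 0.543). The log2 ratio of small- to large-subunit UMIs was -0.728 ± 0.0149 and -0.737 ± 0.0158 (SD, n = 4), a difference of -0.00928 on the log2 scale (exact permutation p = 0.514). It was -0.00153 without replicate 1 at 39 °C, and -0.0998 when medians over the genes of each subunit replaced sums (exact permutation p = 0.0857). A cell held on average 2363 ± 440 member UMIs at 37 °C and 1976 ± 678 at 39 °C (SD, n = 4; exact permutation p = 0.371), and UMIs from other genes differed in the same direction, with 11364 and 9346 per cell. The difference of -386 member UMIs per cell was -697 without replicate 1 at 39 °C (exact permutation p = 0.114).

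**Figure D1:**
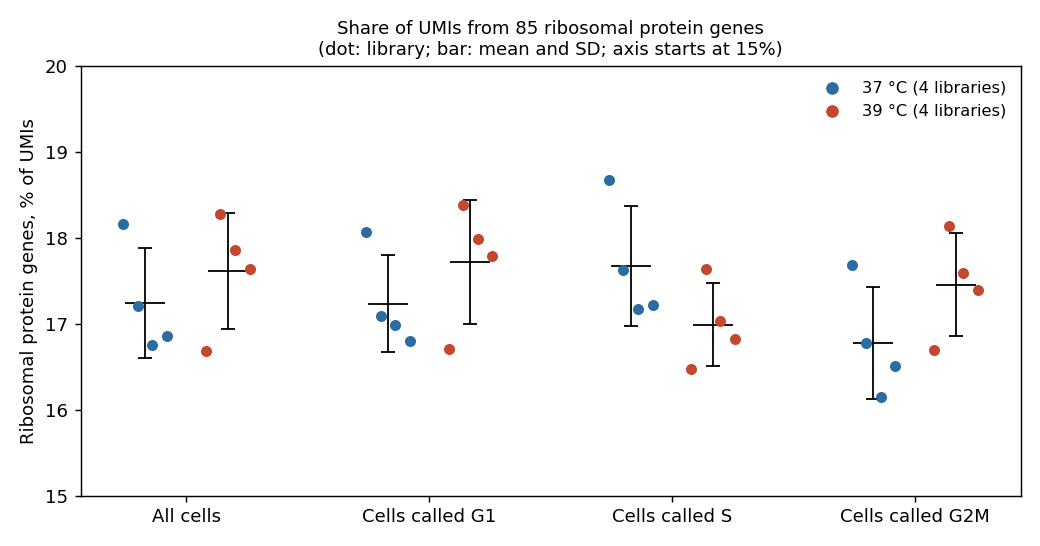
Share of UMIs from the 85 ribosomal protein genes (vertical axis, % of UMIs, starting at 15%) in all cells and in cells called G1, S or G2M (horizontal axis), with 1 dot per library, 4 libraries per temperature, and the mean and SD as bars. The temperatures overlap in all cells and in each phase, and in S-phase cells the 39 °C mean (17%) lies below the 37 °C mean (17.7%), whereas in G1 and G2M cells it lies above. Dots rest on unequal numbers of cells, as few as 34 in G2M and 137 in S.

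The cells themselves were distributed differently over the cell cycle, so the share was also compared within phases called from S and G2M genes, none of which is a member. At 37 °C 20.9% ± 3.09 of cells were called G1, at 39 °C 81.2% ± 1.58 (SD, n = 4). In G1 cells the member share was 17.2% ± 0.565 at 37 °C and 17.7% ± 0.716 at 39 °C. In S-phase cells it was 17.7% ± 0.697 and 17% ± 0.485, and in G2M cells 16.8% ± 0.652 and 17.5% ± 0.597 (SD, n = 4). The fewest cells behind a library's value were 347 in G1, 137 in S and 34 in G2M. No phase showed a difference between temperatures that passed the test (exact permutation, adjusted p = 0.400, 0.343 and 0.343). The differences of 0.483, -0.683 and 0.676 percentage points in G1, S and G2M cells became 0.819, -0.513 and 0.930 without replicate 1 at 39 °C.

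G1 and S cells stood in opposite order at the 2 temperatures. The share in G1 cells minus that in S cells was -0.610, -0.534, -0.179 and -0.429 percentage points in replicates 1 to 4 at 37 °C, and 0.232, 0.750, 0.960 and 0.972 at 39 °C. Every library at 37 °C had the higher share in S cells and every library at 39 °C had it in G1 cells. The temperatures differed by 1.17 percentage points, with the smallest p the exact permutation test allows (0.0286) and 0.0571 after adjustment over 2 phase differences, which does not pass. Without replicate 1 at 39 °C the difference was 1.33 percentage points. Median depth moved with the phases, from 10641 UMIs per G1 cell to 12695 per S cell at 37 °C and from 10650 to 9803 at 39 °C (means over libraries). With every cell thinned to 5000 UMIs the difference was 0.988 percentage points (exact permutation, adjusted p = 0.0571). Across single cells the member share rose with a cell's UMI count in every library, with Spearman correlations of 0.262 to 0.357 over cells at 37 °C and 0.0808 to 0.156 at 39 °C, as a description of cells that share a library. At 37 °C replicate 1, the median share was 16.2% in the quartile of cells with the fewest UMIs and 18.7% in the quartile with the most.

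Single members rose and fell. Of 83 members with enough counts to be tested in all cells, 14 rose at 39 °C, 20 fell and 49 did not pass (quasi-likelihood test of edgeR on the summed counts, Benjamini-Hochberg adjusted p under 0.05 over 15810 genes). Of all genes tested, 31.5% were higher and 30.5% lower. The median log2 fold change of members was -0.01, against 0.02 over all genes, and the interquartile range was -0.16 to 0.11 for members and -0.41 to 0.42 for all genes. Of the called members, 10 changed by more than 0.322 on the log2 scale, 6 of them lower. Of all 15810 genes, 7319 were called with a change of that size. The limits the study used (a change beyond 1.5 on the log2 scale at an adjusted p under 0.01) were met by 0 members and by 5.83% of genes. DESeq2 also placed 0 members past those limits. An unadjusted p under 0.05 in the edgeR fit was found for 38 of the 83 members and 10273 of the 15810 genes. Between the temperatures the libraries did not overlap for 24 of the 83 members, against 56.7% of all genes. The remaining 2 members, Rpl39l and Rpl10l, paralogs known from testis, had 0 UMIs in 210534583. Without replicate 1 at 39 °C, 20 members were higher and 22 lower, against 30.4% and 30.8% of all genes.

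**Figure D2:**
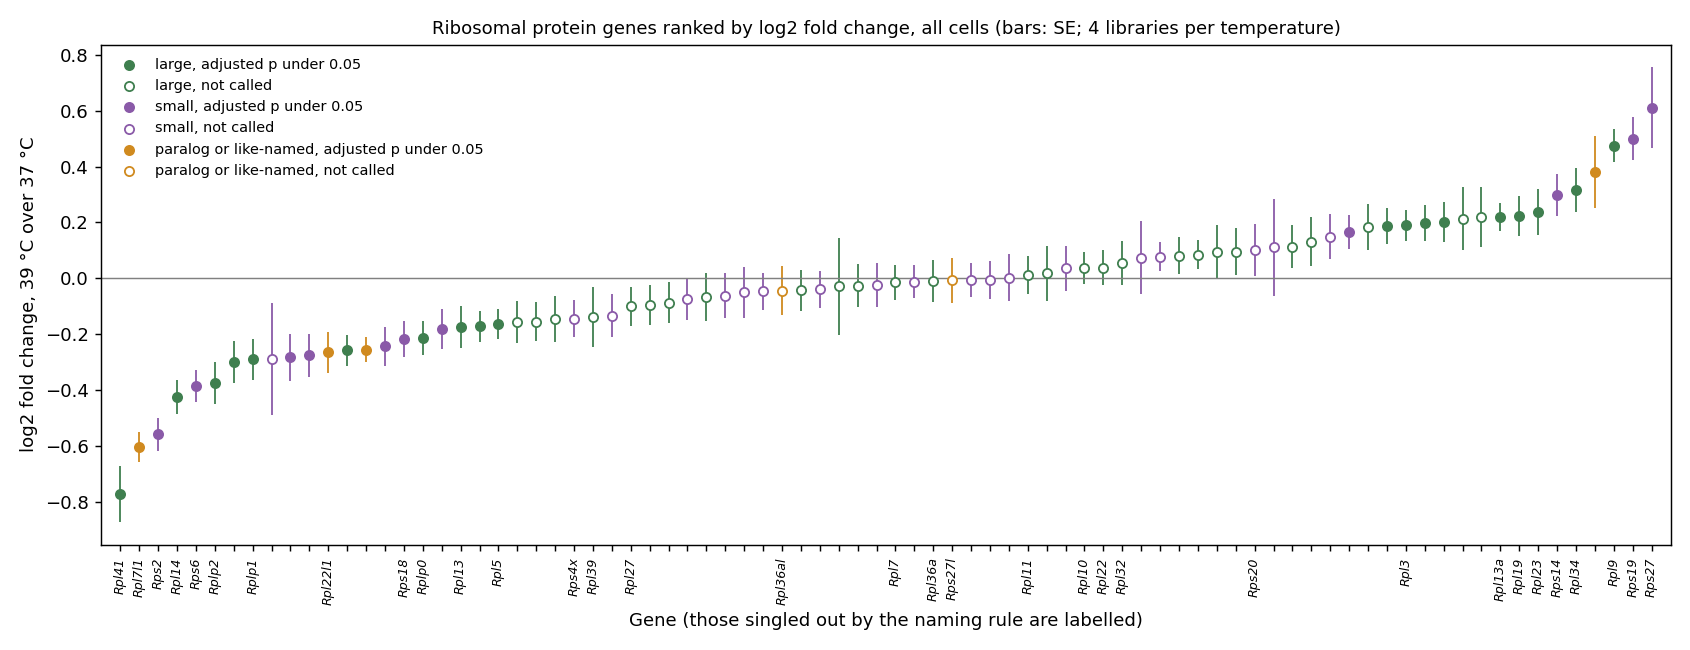
Log2 fold change at 39 °C over 37 °C in all cells (vertical axis; bars are SE, 4 libraries per temperature) for 82 ribosomal protein genes ordered by its value (horizontal axis, with the genes named by rule labelled), coloured by subunit, filled where the edgeR adjusted p is under 0.05; Rpl3l, with 70 UMIs in all, is left out. Members of both subunits stand at both ends, from Rpl41 at -0.77 to Rps27 at 0.61, and most lie within 0.2 of 0.

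Both subunits held genes that rose and genes that fell. Of 46 large-subunit genes, 9 rose and 10 fell, with a median log2 fold change of 0.00. Of 30 small-subunit genes, 4 rose and 7 fell, with a median of -0.03. Thus 41.3% of large-subunit and 36.7% of small-subunit genes were called, against 62.0% of all genes tested. Rps19bp1, a nucleolar protein named for binding Rps19 and not a ribosomal protein, fell by 0.26 on the log2 scale in all cells (adjusted p = 4.76e-05 by edgeR) and was at 0.07 in G1 cells (adjusted p = 0.309).

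Rpl41 fell the most. It encodes the smallest protein of the large subunit and lies on chromosome 10 (128548114 to 128549305, minus strand, mm10). It was at 4603, 4923, 3538 and 3429 CPM in replicates 1 to 4 at 37 °C and at 2419, 2675, 2453 and 2116 CPM at 39 °C. All 4 libraries at 37 °C stood above all 4 at 39 °C, although the 37 °C libraries fell into a higher and a lower pair. The means were 4123 ± 751 and 2416 ± 230 CPM (SD, n = 4). The change on the log2 scale was -0.77 ± 0.10 (SE; adjusted p = 1.61e-06 by edgeR), or 0.586 times the level.

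Rps2, which lines the mRNA entry channel of the small subunit, fell with little spread. Its levels were 1671, 1948, 1873 and 1897 CPM at 37 °C and 1229, 1258, 1255 and 1274 CPM at 39 °C. The 39 °C libraries lay within 45 CPM of each other and far below those at 37 °C. The change on the log2 scale was -0.56 ± 0.06 (SE; adjusted p = 7.00e-08 by edgeR). Rps2 lies on chromosome 17 (24718116 to 24721929, plus strand).

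Rpl14 and Rps6, the small-subunit protein phosphorylated by S6 kinases, followed. Rpl14 was at 1628, 1632, 1647 and 1835 CPM at 37 °C and 1160, 1313, 1259 and 1289 CPM at 39 °C, with no overlap (log2 fold change -0.43 ± 0.06, SE; edgeR, adjusted p = 4.14e-06). Rps6 was at 1184, 1139, 1284 and 1339 CPM and at 914, 950, 973 and 950 CPM, again with no overlap (log2 fold change -0.39 ± 0.06, SE; edgeR, adjusted p = 1.03e-05). The levels at 39 °C were 0.745 and 0.766 times those at 37 °C.

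The 3 P-stalk genes fell. The stalk is the flexible arm of the large subunit that recruits elongation factors, built of Rplp0 and pairs of Rplp1 and Rplp2. All 3 genes were lower at 39 °C with no overlap of libraries. Of all genes tested, 30.5% were called lower and 56.7% had no overlap, so neither trait is particular to the stalk. Rplp2 fell from 1222 ± 153 to 943 ± 56.2 CPM, Rplp1 from 3084 ± 250 to 2521 ± 248 CPM and Rplp0 from 5498 ± 297 to 4739 ± 146 CPM (SD, n = 4). The log2 fold changes were -0.37 ± 0.07, -0.29 ± 0.07 and -0.21 ± 0.06 (SE; edgeR, adjusted p = 0.000219, 0.00220 and 0.00476). In G1 cells Rplp2 and Rplp1 were lower, at -0.22 and -0.23 (edgeR, adjusted p = 0.0160 and 0.0139), with overlapping libraries for Rplp2, while Rplp0, at -0.13, did not pass (adjusted p = 0.0737). Without replicate 1 at 37 °C neither Rplp2 (-0.13, adjusted p = 0.121 by edgeR) nor Rplp1 (-0.16, adjusted p = 0.0904) passed in G1 cells.

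Rps27, Rps19 and Rpl9 rose the most. Rps27, a zinc-finger protein of the small subunit, was at 978, 1129, 918 and 741 CPM at 37 °C and at 2034, 1412, 1233 and 1069 CPM at 39 °C. The groups overlapped, since replicate 4 at 39 °C lay below replicate 2 at 37 °C, and replicate 1 at 39 °C stood well above the rest. The log2 fold change was 0.61 ± 0.15 (SE; edgeR, adjusted p = 0.00117), and 0.39 without replicate 1 at 39 °C (adjusted p = 0.00154). Rps27 lies on chromosome 3 (90212522 to 90213651, minus strand), and the retrocopy Rps27rt on chromosome 9, at 20.9 ± 4.38 and 27.5 ± 5.64 CPM (SD, n = 4), was called higher with all libraries (log2 fold change 0.38; edgeR, adjusted p = 0.0158) but not without replicate 1 at 39 °C (adjusted p = 0.0560). The copies are near-identical in sequence, so the small count of Rps27rt is uncertain.

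Rps19, on chromosome 7 (24884371 to 24889806, plus strand), is the gene most often mutated in Diamond-Blackfan anaemia. It was at 3088, 2642, 2502 and 2604 CPM at 37 °C and at 3308, 4129, 3966 and 3917 CPM at 39 °C. Every 39 °C library lay above every 37 °C library, replicate 1 only narrowly so. The log2 fold change was 0.50 ± 0.08 (SE; edgeR, adjusted p = 1.24e-05). Rpl9, on chromosome 5 (65388364 to 65391444, minus strand), was at 2230, 2189, 2345 and 2297 CPM and at 2914, 3078, 3258 and 3337 CPM, with no overlap and a tighter spread (log2 fold change 0.47 ± 0.06, SE; edgeR, adjusted p = 9.51e-07). A near-identical pseudogene, Rpl9-ps6, was counted apart with 2466 UMIs, 0.436% of the UMIs of Rpl9.

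Rpl34 and Rps14 rose by 0.32 and 0.30 on the log2 scale (edgeR, adjusted p = 0.00187 and 0.00208), with overlapping libraries. Rpl34 ranged from 1672 to 2212 CPM at 37 °C and from 2197 to 2545 CPM at 39 °C. Rps14 ranged from 2113 to 2439 CPM and from 2314 to 2985 CPM, the lowest 39 °C value being that of replicate 1.

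**Figure D3:**
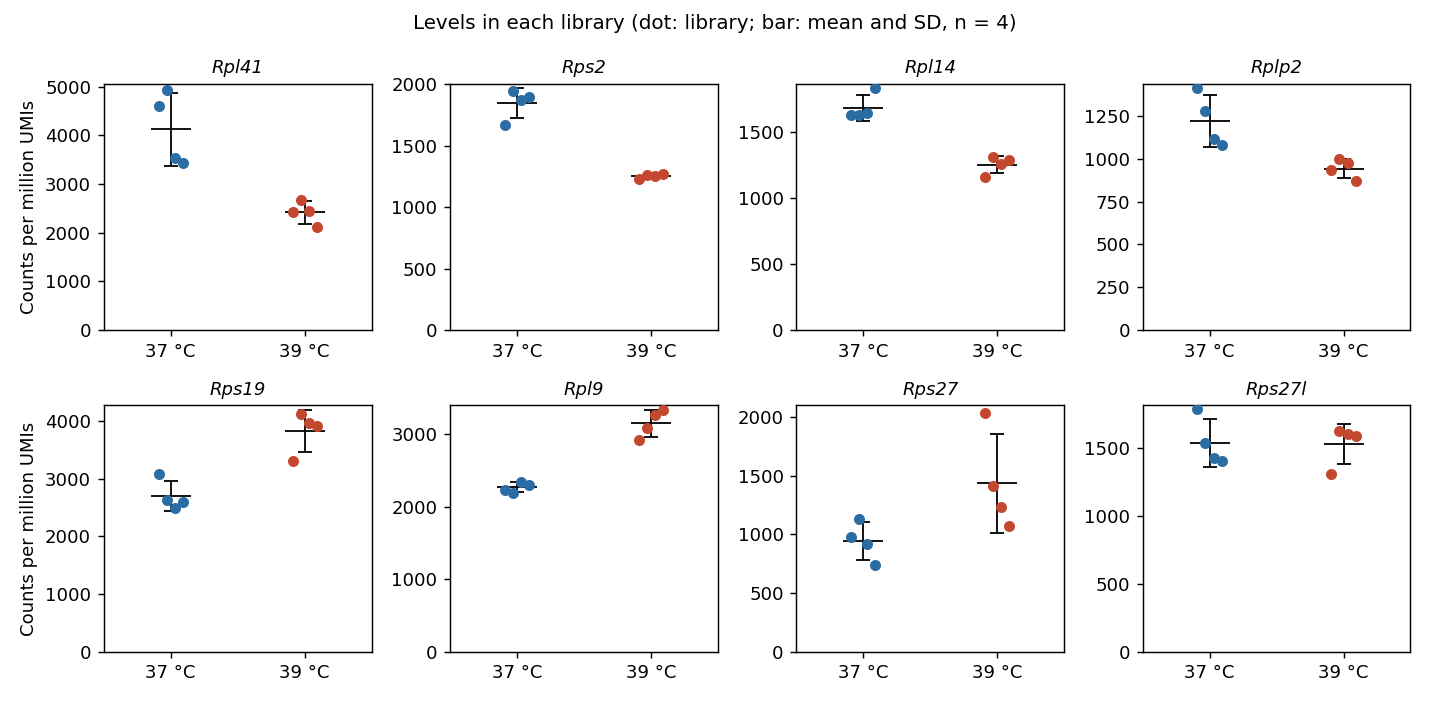
Level in CPM (vertical axes, from 0) at 37 °C and 39 °C (horizontal axes) for 8 members, with 1 dot per library and the mean and SD of 4 libraries as bars. Rpl41, Rps2, Rpl14 and Rplp2 are lower at 39 °C and Rps19 and Rpl9 higher with no overlap, Rps27 is higher with overlap, and Rps27l is at 1541 and 1532 CPM.

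The most abundant members did not move as a group. Each UMI counts 1 molecule by its 3' end whatever the transcript's length, so levels in CPM were not divided by length. The 5 members with the highest mean level, Rpl19, Rpl13, Rpl23, Rplp0 and Rps20, held 15% of all member UMIs. Rpl19 rose from 5677 ± 281 to 6618 ± 612 CPM (SD, n = 4; log2 fold change 0.22; edgeR, adjusted p = 0.0114) and Rpl23 from 4780 ± 476 to 5634 ± 621 CPM (0.24; adjusted p = 0.0182). Rpl13 fell from 5587 ± 323 to 4952 ± 502 CPM (log2 fold change -0.17; edgeR, adjusted p = 0.0487) and lost the call without replicate 1 at 39 °C (-0.11, adjusted p = 0.0980). For Rps20 the log2 fold change was 0.10 (adjusted p = 0.362 by edgeR), and 0.18 without replicate 1 at 39 °C, which passed (adjusted p = 0.0301). Rpl23 lost its call in 5 of 21 alternative settings.

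Ribosomal protein genes often used as references for normalisation differed in direction. Of 6 such genes, Rpl13a (log2 fold change 0.22) and Rpl19 (0.22) rose, and Rplp0 (-0.21) and Rps18 (-0.22) fell (edgeR, adjusted p = 0.000827, 0.0114, 0.00476 and 0.00627). Rpl27 and Rpl32, at -0.10 and 0.05, did not pass (edgeR, adjusted p = 0.231 and 0.582). Thus 66.7% of this list was called, against 62.0% of all genes tested. Rpl13a, at 264 ± 12.6 and 308 ± 13.2 CPM, and Rpl27, at 207 ± 25.8 and 193 ± 13.5 CPM (SD, n = 4), were among the lowest of the canonical members. Both have processed copies, and the pseudogene Rpl27-ps3 held 6.75% as many UMIs as Rpl27, so their counts are uncertain.

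Of 8 members known to bind Mdm2, 3 rose (Rps27, Rpl23 and Rps7) and 1 fell (Rpl5), with a median log2 fold change of 0.00, beside 31.5% and 30.5% of all genes. Rpl5 and Rpl11 form the 5S particle with 5S ribosomal RNA, the main Mdm2-binding complex. Rpl5 fell from 1326 ± 48.4 to 1185 ± 51.0 CPM (SD, n = 4; log2 fold change -0.16; edgeR, adjusted p = 0.0141), and Rpl11 was at 1620 ± 71.6 and 1633 ± 161 CPM (0.01; adjusted p = 0.893). Rpl5 lost its call in 2 of 21 alternative settings, with an adjusted p of up to 0.0609 by edgeR, and did not pass in G1 cells (-0.06, adjusted p = 0.424).

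Of 7 proteins around the exit of the peptide tunnel, Rpl17 and Rpl19 rose by 0.20 and 0.22, and Rpl31 fell by 0.30 (edgeR, adjusted p = 0.0105, 0.0114 and 0.00165). With all libraries 42.9% of this list was called, against 62.0% of all genes tested. Of the other 4, Rpl39, which lines the tunnel itself, was at -0.14 (adjusted p = 0.279 by edgeR), and at -0.26 without replicate 1 at 39 °C, where it passed (adjusted p = 0.0180).

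The levels of paralogs were compared with those of their parent genes. Of 8 pairs, 5 had enough UMIs in both genes. Rpl39l and Rpl10l had 0 UMIs, and Rps4l, paired with Rps4x, was not among the genes listed for these cells. The ratio of Rpl7l1, a nucleolar relative of Rpl7, to Rpl7 was 2.65% at 37 °C and 1.77% at 39 °C. Its log2 value was -5.34, -5.16, -5.19 and -5.27 in replicates 1 to 4 at 37 °C and -5.59, -5.92, -5.84 and -5.94 at 39 °C, with no overlap. Rpl7l1 itself fell from 61.6 ± 3.87 to 40.6 ± 1.82 CPM (SD, n = 4; log2 fold change -0.60 ± 0.05, SE; edgeR, adjusted p = 6.46e-09), the second largest fall among members, while Rpl7 was at 2324 and 2302 CPM.

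Rpl22l1 was more abundant than Rpl22, the protein it can replace in the ribosome, at both temperatures. The log2 ratio of Rpl22l1 to Rpl22 was 0.482, 0.471, 0.430 and 0.484 at 37 °C and 0.0347, 0.187, 0.178 and 0.239 at 39 °C, again with no overlap. Rpl22l1 fell from 952 ± 94.3 to 792 ± 72.7 CPM (SD, n = 4; log2 fold change -0.27; edgeR, adjusted p = 0.00391), and Rpl22 was at 689 ± 64.3 and 707 ± 33.2 CPM (0.04; adjusted p = 0.625). Both pair ratios reached the smallest exact permutation p of 0.0286, and 0.0714 after adjustment over 5 pairs.

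Rps27l, the p53-inducible paralog of Rps27, was at 1541 ± 176 and 1532 ± 148 CPM (SD, n = 4; log2 fold change -0.01; edgeR, adjusted p = 0.941) while Rps27 rose. The log2 ratio of Rps27l to Rps27 was 0.720 ± 0.221 at 37 °C and 0.130 ± 0.531 at 39 °C (SD, n = 4), with overlap (exact permutation, p = 0.0571, adjusted p = 0.0952). The difference was -0.59, and -0.34 without replicate 1 at 39 °C. Only replicate 1 at 39 °C had fewer UMIs of Rps27l than of Rps27, with a log2 ratio of -0.634. The ratio of Rpl36al to Rpl36a was 9.26% at 37 °C and 9.05% at 39 °C, with overlap, and did not pass. Rpl3l, the muscle paralog of Rpl3, had 70 UMIs in all, and Rpl3 rose by 0.19 (edgeR, adjusted p = 0.00577).

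Within G1 cells, 18 of the 83 members were higher and 9 lower at 39 °C (edgeR, adjusted p under 0.05 over 14625 genes), against 23.9% and 21.2% of all genes. Scaling by library totals in place of TMM gave 13 higher and 12 lower there. RLE scaling gave 13 and 11 (22% and 22.8% of all genes), as did upper quartile scaling (21.8% and 23%). DESeq2 gave 15 and 11 (19.6% and 21.3%), and TMM factors computed without the members 18 and 9. The balance of rises and falls in G1 cells thus varied with the scaling. The median log2 fold change in the main G1 fit was 0.05 for members and 0.04 for all genes. All 14 members that rose in all cells also rose in G1 cells, and 9 of the 20 that fell also fell. Some of these rises were near the threshold, since in G1 cells Rpl3 lost its call in 6 of 16 alternative settings, Rpl23 in 5, Rpl13a in 1 and Rps27 in 1 (DESeq2, adjusted p = 0.0772). For each of the 20 that fell in all cells, the log2 fold change in G1 cells was smaller in size. These 20 were picked by their call in all cells, which favours smaller values in another fit. Over all genes the interquartile range also narrowed, from -0.41 to 0.42 in all cells to -0.27 to 0.37 in G1 cells. The share of all genes called lower was 30.5% in all cells and 21.2% in G1 cells. Rpl41 was at 3903, 3936, 2966 and 2878 CPM in G1 cells at 37 °C and 2369, 2577, 2352 and 2041 CPM at 39 °C, still without overlap (log2 fold change -0.55; edgeR, adjusted p = 2.39e-05). Rps2 went from -0.56 in all cells to -0.32 in G1 cells, Rpl14 from -0.43 to -0.26 and Rps6 from -0.39 to -0.22. Rps27, Rps19 and Rpl9 stood at 0.53, 0.46 and 0.48 in G1 cells, with Rps27 at 0.32 without replicate 1 at 39 °C. Rpl21, Rpl35a, Rps10 and Rps3a1 rose in G1 cells only among the 2 fits, at 0.21, 0.27, 0.20 and 0.15 against 0.08, 0.18, 0.15 and 0.08 in all cells (these 4 were named after their values were seen). Rpl35a and Rps10 passed in all cells too once replicate 1 at 39 °C was left out, at 0.22 and 0.23 (edgeR, adjusted p = 0.0171 and 0.00127). The difference between the 2 fits was not tested for any gene. Without replicate 1 at 39 °C, 26 members were higher and 10 lower in G1 cells, against 24.1% and 21.6% of all genes.

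**Figure D4:**
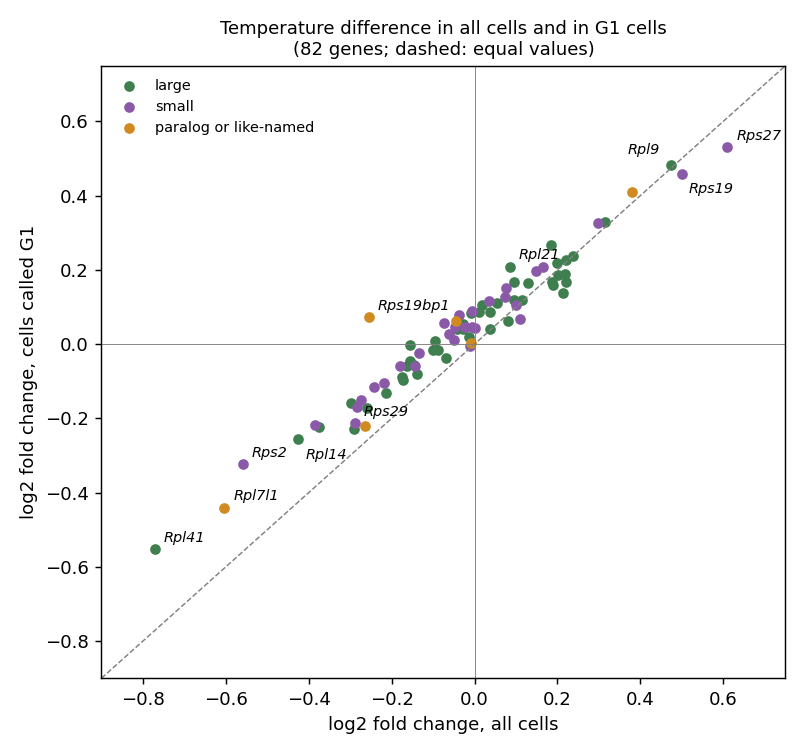
Log2 fold change at 39 °C over 37 °C in cells called G1 (vertical axis) against all cells (horizontal axis) for 82 ribosomal protein genes, 1 dot each, coloured by subunit; the dashed line marks equal values. Genes on the left lie above the line, so their falls are smaller in G1 cells, as with Rps2 at -0.32 and -0.56, while Rps27, Rps19 and Rpl9 lie near it. Fold changes of all genes (not drawn) also spanned a narrower range in G1 cells, with an interquartile range of -0.27 to 0.37 against -0.41 to 0.42.

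Taking each member as a part of the member UMIs of its library, in place of all UMIs, gave 15 higher and 20 lower (edgeR, adjusted p under 0.05). When every gene was scaled in this way, 29.3% of all genes were higher and 28.9% lower. Of the members called, 33 were also called in the comparison with all UMIs. Rpl41, Rpl7l1 and Rps2 were again the lowest, at -0.77, -0.60 and -0.56, and Rps27, Rps19 and Rpl9 the highest, at 0.63, 0.50 and 0.47 on the log2 scale.

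Members with short transcripts varied the most among libraries of the same temperature. The coefficient of variation (CV, SD over mean) among libraries of 1 temperature had a median of 9.23% over the 69 members of at least 1000 CPM, against 5.04% over the 56 other genes at that level. It fell with the length of the principal transcript (Spearman correlation -0.589 across 82 members that share the same libraries, a description only). The 8 most variable members of at least 10 CPM, named after their values were seen, were Rps29 (35.2%), Rps28, Rpl38, Rps27, Rps27rt, Rps21, Rpl37a and Rpl37 (16.1%), and 6 of them are among the 7 members with transcripts under 400 bases. Rps29 was at 1379, 2232, 1663 and 1240 CPM at 37 °C and 2148, 1228, 1070 and 891 CPM at 39 °C. Its highest values were in replicate 2 at 37 °C and replicate 1 at 39 °C, and its lowest in replicate 4 at each temperature.

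All 8 of these members lay above their temperature's mean in replicate 2 at 37 °C and in replicate 1 at 39 °C, by medians of 0.29 and 0.49 on the log2 scale. All 8 lay below it in replicate 4 of both temperatures, by medians of -0.32 and -0.37. Depth moved with this: replicate 1 at 39 °C had the highest median UMIs per cell at its temperature (16665) and replicate 4 the lowest (6676), and at 37 °C replicate 2 had 14773 and replicate 4 the lowest, 9839, but replicate 3, with the highest (15413), had a median deviation of -0.04. The part of depth in the pattern was not tested. For Rps29 the log2 fold change was -0.29 with all libraries (edgeR, adjusted p = 0.224) and -0.62 without replicate 1 at 39 °C (adjusted p = 0.000286), and for Rpl38 it was -0.03 (adjusted p = 0.898) and -0.31 (adjusted p = 0.0250).

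**Figure D5:**
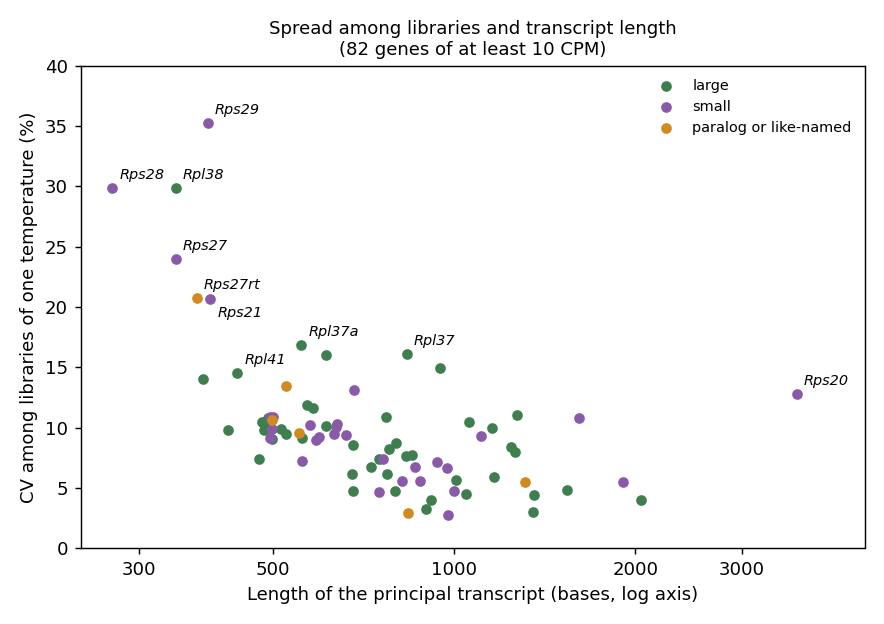
Coefficient of variation among libraries of 1 temperature (vertical axis, %) against the length of the principal transcript (horizontal axis, bases, log scale) for the 82 ribosomal protein genes of at least 10 CPM, coloured by subunit. Rps29, Rpl38, Rps28 and Rps27, with transcripts of 271 to 390 bases, stand at 24.0% or above, whereas all but 8 members lie at or below that of Rpl39.

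Genes with related functions were read beside the members. Rpsa, the small-subunit protein also known as the laminin receptor, fell from 4492 ± 229 to 2825 ± 184 CPM (SD, n = 4; log2 fold change -0.67 ± 0.06, SE; edgeR, adjusted p = 2.29e-08), a larger fall than that of any member but Rpl41. Fau and Rack1, at 0.07 and -0.02 on the log2 scale, did not pass (adjusted p = 0.453 and 0.737 by edgeR).

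Of 17 other genes with TOP mRNAs, 7 rose and 6 fell, with a median log2 fold change of 0.00, and 76.5% were called, against 41.0% of members and 62.0% of all genes. The elongation factor Eef2 rose by 0.62, the initiation factor Eif3f by 0.32 and the poly(A)-binding protein Pabpc1 by 0.30 (edgeR, adjusted p = 1.73e-08, 5.17e-06 and 9.61e-05). The splicing regulator Hnrnpa1 fell by 1.03, the histone chaperone Nap1l1 by 0.96 and the elongation factor Eef1g by 0.70 (edgeR, adjusted p = 4.67e-12, 2.05e-12 and 6.65e-09). Of 78 genes for mitochondrial ribosomal proteins, which build the separate ribosome of mitochondria, 59 fell and 7 rose (84.6% called), with a median of -0.34 on the log2 scale in all cells and -0.20 in G1 cells. The difference between these lists and the members was not tested.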

How the data were processed

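The deposited files are matrices of UMI counts, 1 per library, which the authors made with Cell Ranger 3.0.1 (genome mm10 per the labels); reads matching several genes equally well are normally not counted there, which lowers genes with near-identical copies. The members and lists were chosen with earlier results of these data known. Cells with at most 15% mitochondrial UMIs and 200 to 6000 genes were kept, by the study's limits; no doublet caller was run. Phases were called with Seurat 5.3.0, with members kept out of its control genes. The summed counts of each library entered edgeR 4.0.16 (TMM scaling, genes averaging at least 1 count per library, quasi-likelihood test, 4 libraries against 4, no replicate block; adjusted p under 0.05). On simulated counts the fit recovered 200 of 200 genes changed by 0.5 on the log2 scale among 15810, and called 12 others. Only these 200, drawn from better-expressed genes, were changed, in random directions, whereas 62.0% of genes were called in the data. Changes under 0.5, the size of most member changes, were not simulated. The simulation therefore does not check the scaling or the calls of small changes. CPM are TMM-scaled. Shares and ratios were tested by exact permutation. Depth was 17166686 to 29633818 UMIs per library. Positions and lengths are from GENCODE M21. Genes named were the 5 highest and 5 lowest fold changes of at least 50 CPM, 3 at each end within the member UMIs, the 5 most abundant, and the listed groups and pairs; the most variable members, and other genes given as members of a called list, were named after their values were seen. DESeq2 1.42.0, other scalings, filters, thinning to 5000 UMIs and leaving out each library were alternatives. Results on a few items are not reported here.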

Additional observations from a re-analysis of the deposited data

Results flagged for a closer look

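In 126 sets of 4 libraries (the measures, pair ratios and named genes at each temperature), 15 had a library far from the other 3, by a gap past Dixon's critical value for its share of the range. Chance gives about 6.3, and genes of 1 library are not independent. Of the 15, 11 were in replicate 1 at 39 °C, which was the lowest in 9. It was the lowest for Rps14 (2314 CPM), Rps20 (3643), Rpl23 (4715), Rpl13 (4204), Rpl19 (5704), Rpl11 (1394), Rpl32 (2496), Rps27l (1311) and Rpl22l1 (684 CPM). It was the highest for Rpl13a (327 CPM) and Rpl10 (1945 CPM).

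At 37 °C, replicate 1 was lowest for Rpl7l1 (55.8 CPM) and highest for Rpl36al (146 CPM), and replicate 4 was highest for Rpl14 (1835 CPM) and Rps4x (4408 CPM).

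The member share of G1 cells minus that of S cells was negative in 4 of 4 libraries at 37 °C and positive in 4 of 4 at 39 °C, a difference of 1.17 percentage points between temperatures (exact permutation, p = 0.0286, adjusted p = 0.0571).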

How the results depend on the processing

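Across the alternatives, counts of members called stayed within 1.5 times of the values given. Leaving out each library in turn, 10 to 20 were higher and 19 to 22 lower in all cells, 12 to 26 and 6 to 10 in G1 cells, and 13 to 19 and 17 to 24 within the member UMIs. Without replicate 1 at 39 °C, 30.4% of all genes were higher and 30.8% lower in all cells. The shares were 24.1% and 21.6% in G1 cells, and 27.5% and 30.6% when scaled by the member UMIs. In G1 cells, scaling by library totals gave 13 higher and 12 lower, against 22.3% and 22.5% of all genes. In all cells the median of all genes lay between -0.00 and 0.05 under every scaling tried.

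Member UMIs per cell differed by 31.0 in the other direction when cells were thinned to 5000 UMIs. With the same total in every cell, that amount only restates the share, which differed by 0.621 percentage points when thinned (exact permutation p = 0.286). It is therefore no check of the amount per cell. With phases called within each library, G1 minus S differed by 0.892 and G1 minus G2M by -0.792 (exact permutation, both at adjusted p = 0.0286). Neither difference passed with the main phase calls or under any other alternative tried. With the main calls G1 minus G2M differed by only -0.193 percentage points, with overlapping libraries (exact permutation, adjusted p = 0.371). When cells were thinned to 5000 UMIs it differed by -0.415 (exact permutation, adjusted p = 0.0857). The log2 ratio of Rpl3l to Rpl3 (70 UMIs) became 0.474 when thinned. Without 1 library at a time, that ratio ran from -0.31 to 0.14, Rpl36al to Rpl36a from -0.0883 to 0.0653, Rps27l to Rps27 from -0.74 to -0.34, Rpl22l1 to Rpl22 from -0.33 to -0.27 and Rpl7l1 to Rpl7 from -0.66 to -0.55. The last 3 passed without replicate 4 at 39 °C (adjusted p = 0.0476). The cause was not tested.

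Same-numbered libraries correlated at -0.117, -0.116, -0.0906 and 0.284 in all cells, and the labels give the numbers no shared origin. Libraries with unlike numbers ran from -0.310 to 0.303, so the value of replicate 4 was not outside their range. With the replicate block, 17 members were higher and 20 lower in all cells, 19 and 9 in G1 cells and 17 and 22 within the member UMIs. Of all genes, 30.9% were higher and 30% lower with the block in all cells, and 23.3% and 20.9% in G1 cells. The share difference of 0.365 had an exact p = 0.625, where the smallest possible is 0.125. The block changed 1 call among the named genes, a fall of Rps4x within the member UMIs that it added. For UMIs per cell, the subunit ratio and the phases it was chosen after seeing the data.

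For 122 fold changes of named genes, recomputed 2033 times in all under the alternatives, 37 lost a call, 27 gained one, and 82 that were never called changed sign. In all cells Rpl13 lost its call in 9 of 21 alternatives, Rpl23 in 5 and Rpl5 in 2. No change of Rpl39l and Rpl10l (0 UMIs) or Rpl3l could be resolved at this depth.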
